A study of Mus musculus with 86 samples.

Results

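The 10 imprinted genes Igf2, H19, Igf2r, Cdkn1c, Dlk1, Mest, Peg3, Plagl1, Grb10 and Meg3, which regulate embryonic growth, were followed cell by cell in the early mouse kidney. They were chosen by name, and all 10 are among the 12360 genes of the authors' table of expressed genes. The table covers 86 single cells of wild type metanephroi, the embryonic kidney, at 12.5 days post coitum (Theiler stage 20), from a mixed background with males and females pooled. A trypsin suspension of pooled kidneys was captured on a Fluidigm C1, a device that holds single cells in separate chambers, and the amplified cDNA of each cell was sequenced. The 10 genes were compared between 3 classes of cells. Ureteric bud cells were those with a Mal2 RPKM (a read count divided by the length of the gene and by the cell's own total) of at least 100, and there were 7 of them. Six2-detecting cells were the 46 others with a Six2 RPKM of at least 1, where Six2 marks nephron progenitors, and the remaining cells were the other 33. Mal2 was at 1219 or more in the bud cells and at 3.41 or less in every other cell, so its limit lay in a wide gap. The lowest Six2 value among Six2-detecting cells was 1.50, and the highest among the remaining cells was 0.527. All cells came from 1 pool of kidneys and count as 1 sample, so no test was made and each SD below is the spread between cells.

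Genomic imprinting silences a gene on the copy inherited from the mother or on the copy inherited from the father, so that a cell normally uses a single parental copy. Many imprinted genes act on fetal growth: paternally expressed genes such as Igf2, Dlk1, Mest, Peg3 and Plagl1 are mostly known as growth promoters, and maternally expressed genes such as H19, Igf2r, Cdkn1c and Grb10 mostly restrain growth. In the developing kidney, the ureteric bud branches into the collecting system, Six2-positive progenitors give rise to nephrons, and Foxd1-positive stroma surrounds both. The deposited values do not separate the parental copies, so the levels below are sums over both.

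The classes were checked against their markers. All 10 ureteric bud markers in the table were higher in bud cells than in the remaining cells, with a median log2 ratio of 4.02. They included the keratin Krt18, the calcium-binding protein Calb1 and Ret, the receptor for GDNF, which was detected in 6 of 7 bud cells and in no other cell. Six2 was also detected in 3 bud cells, at an RPKM of 12.1, 18.6 and 50.4, and the counts of called genes are also given without them. Foxd1, which marks stroma, was detected in 3 of 7 bud cells, 31 of 46 Six2-detecting cells and 25 of 33 remaining cells. The summed RPKM of 17 stroma markers had a median of 32.8 in bud cells, 356 in Six2-detecting cells and 807 in the remaining cells. A gene was called detected at an RPKM of at least 1, and the median cell detected 6488 genes among bud cells, 6256 among Six2-detecting cells and 6087 among the remaining cells. The relative depth of each cell, read from the steps between its low values, ranged from 0.152 to 3.07 with a median of 1.00. A depth under 0.2 was found in 4 cells, all of them Six2-detecting.

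Most of the 10 genes were on in nearly every cell. H19, Cdkn1c, Mest, Peg3 and Grb10 were detected in all 86 cells, Igf2 in 85, Igf2r in 84, Plagl1 in 68, Meg3 in 47 and Dlk1 in 16. Of all 12360 genes, 5.55% were detected in every cell and 9.01% in at least 84 cells. A bud cell detected 7 to 9 of the 10 genes (median 8), a Six2-detecting cell 7 to 10 (median 8) and a remaining cell 7 to 10 (median 9). On the length-corrected RPKM scale, Mest had the highest mean level, 782 over the 86 cells, which ranked 70 of 12360 genes. Cdkn1c followed at 459, H19 at 226, Peg3 at 184, Igf2 at 92.4, Grb10 at 78.8, Plagl1 at 53.1, Igf2r at 13.5, Meg3 at 5.21 and Dlk1 at 0.729. The coefficient of variation between cells (SD over mean) ranged from 0.583 for Grb10 to 2.70 for Dlk1, and it exceeded 1 for Igf2r, Plagl1, Meg3 and Dlk1. Neighbours in this order therefore overlapped in single cells.

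**Figure D1:**
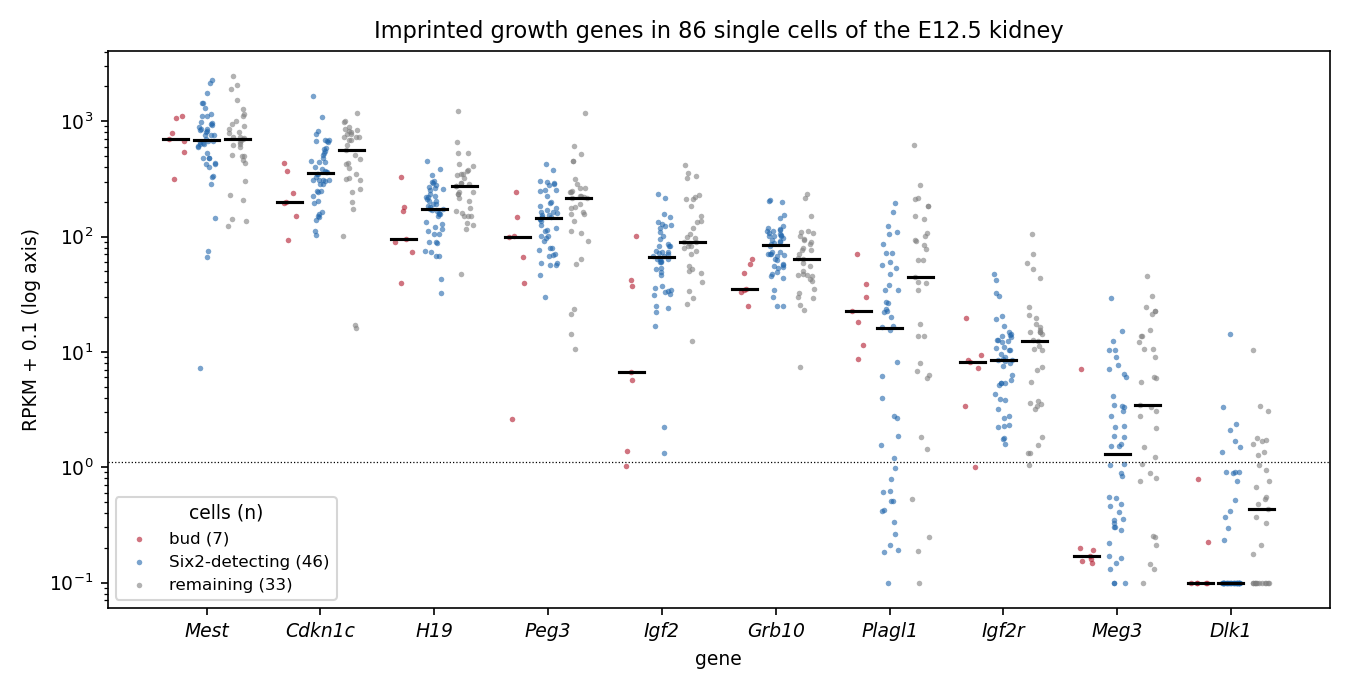
RPKM of the 10 genes in each of the 86 cells, with 0.1 added so that 0 can be shown, on a log axis. Each point is a cell, bars are class medians, colours from left to right are bud, Six2-detecting and remaining cells, and the dotted line marks the detection limit of 1. Mest has nearly the same median in all 3 classes (705, 690 and 694), Igf2 is low in 4 of 7 bud cells, and Meg3 lies near 0 in 6 of 7 bud cells.

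Bud cells had lower mean levels than the remaining cells for most of these transcripts. Ratios are the log2 of the mean RPKM plus 1 in a class over the same in another class, and a ratio was counted when it was at least 1 in size, that is 2-fold. Dlk1 averaged under an RPKM of 1 in every class and was left out of these counts. In bud cells over the remaining cells, 7 of the other 9 genes were lower by at least 2-fold and none was higher, whereas 37.2% of the 11405 genes compared differed by as much, 23.8% lower and 13.3% higher. The median ratio of the 9 genes was -1.21, against -0.12 over all genes compared. In bud cells over Six2-detecting cells, 3 of 9 were lower (Igf2, Meg3 and Grb10), where 33.8% of all genes compared differed by as much and 22.6% were lower. The median was -0.65, against -0.15 over all genes compared. In Six2-detecting cells over the remaining cells, 2 of 9 were lower (Plagl1 and Meg3), where 8.19% of all genes compared were lower and 7.92% were higher. The median was -0.70, against 0.02 over all genes compared. Without the 3 bud cells that detected Six2, the 7 genes lower than in the remaining cells were the same, and the 3 lower than in Six2-detecting cells were Igf2, Cdkn1c (-1.01) and Grb10. These 3 comparisons share cells and are not independent of each other. The count in bud cells over the remaining cells was 4 when the mean of log2(RPKM + 1) was compared in place of the mean RPKM: Igf2, H19, Peg3 and Meg3. On that scale Igf2 and Peg3 were lower and Plagl1 was higher by at least 2-fold in bud over Six2-detecting cells.

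**Figure D2:**
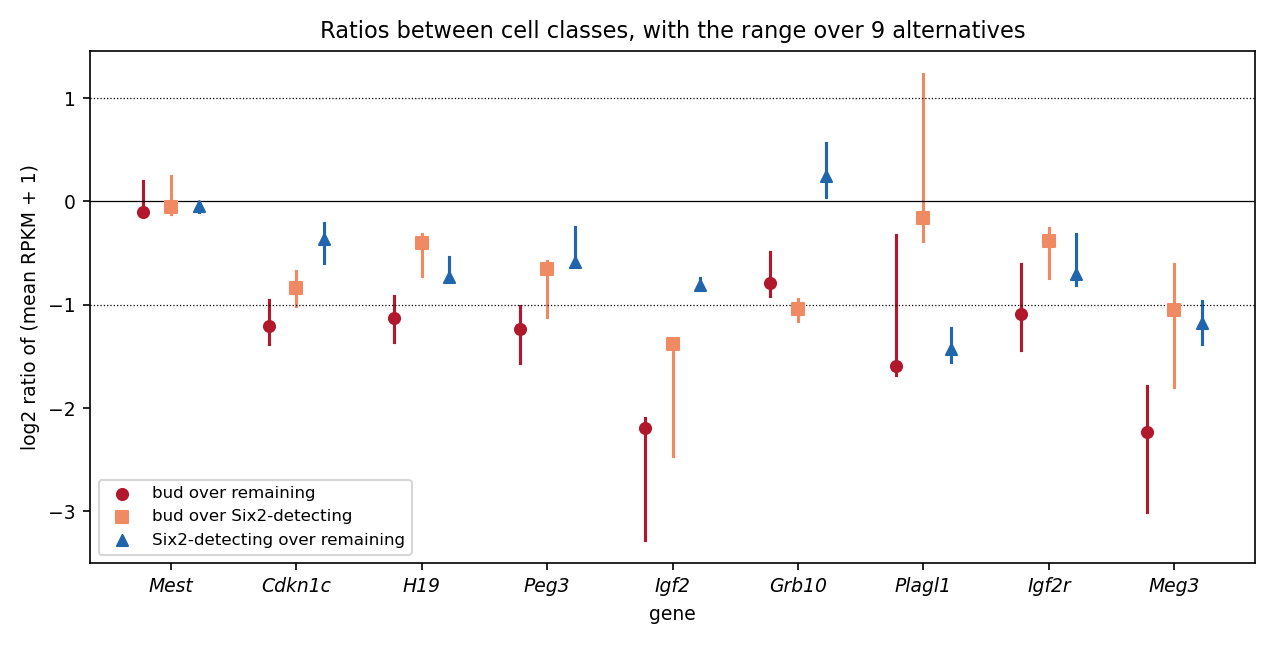
Log2 ratio of (mean RPKM + 1) for 9 genes in bud over remaining cells (circles), bud over Six2-detecting cells (squares) and Six2-detecting over remaining cells (triangles). Lines span the 9 alternative ways of computing each ratio, and dotted lines mark a 2-fold difference. Igf2 and Meg3 are lowest in bud over remaining cells, and the range of Plagl1 in bud over Six2-detecting cells crosses 0, from -0.39 to 1.23.

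Igf2, the insulin-like growth factor that drives fetal growth, was the gene with the largest bud difference among those detected in nearly all cells. Its RPKM in the 7 bud cells was 0.921, 1.28, 5.65, 6.58, 37.4, 41.9 and 102. In Six2-detecting cells the lowest value was 1.23, the median 65.8 and the highest 232, and in the remaining cells these were 12.3, 89.4 and 417. Thus 4 of 7 bud cells lay below every remaining cell, while the other 3 lay within the range of both other classes. An RPKM under 10 was found in 6 of the 86 cells, of which 4 were bud cells and 2 were Six2-detecting. The mean was 27.9 ± 36.8 in bud cells, 74.4 ± 49.4 in Six2-detecting cells and 131 ± 103 in the remaining cells (SD over 7, 46 and 33 cells). The log2 ratio was -2.19 in bud over remaining cells and -1.38 in bud over Six2-detecting cells. The bud cell at 102 had the highest Six2 of the 7, at 50.4. Without the 3 bud cells that detected Six2, the ratios were -3.27 and -2.47.

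H19, a non-coding RNA of the maternal copy that shares an enhancer region with Igf2, was lower in the same bud cells as Igf2 but stayed abundant in all of them. In mm9 H19 is at chr7:149761436-149764051 and Igf2 at chr7:149836673-149846940, a gap of 72.6 kb. H19 in bud cells ranged from 39.6 to 329 with a median of 95.8. It ranged from 32.1 to 453 with a median of 174 in Six2-detecting cells, and from 47.2 to 1237 with a median of 272 in the remaining cells. The classes overlapped broadly, and the ratio was -1.13 in bud over remaining cells and -0.40 in bud over Six2-detecting cells. In the 4 bud cells with Igf2 under 10, H19 lay between 39.6 and 95.8, and in the 3 others it lay between 165 and 329. The bud cell with 0.921 of Igf2 had 89.2 of H19, and the cell with 1.28 of Igf2 had 72.6. H19 exceeded Igf2 in 7 of 7 bud cells, 42 of 46 Six2-detecting cells and 31 of 33 remaining cells, or 80 of 86 in all (exact 95% interval of the share 85.4% to 97.4%, for counting error only). The log2 of (H19 + 1) over (Igf2 + 1) had a median of 2.94 in bud cells, 1.45 in Six2-detecting cells and 1.32 in the remaining cells. At the limit of 1, a single bud cell detected H19 without Igf2, and no cell showed the reverse.

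Both genes carry a microRNA inside their annotated bounds: miR-675 lies in H19 and miR-483 in Igf2. Mature microRNAs are not measured by this cDNA protocol. The sequences (RefSeq, GRCm38.p6) show which small RNAs lie within the bounds of these genes. Whether they lie in exons or introns was not examined, so the gene levels do not measure them. Capitals mark the seed, bases 2 to 8, which pairs with target messages, and no seed is shared between the 4 arms.
mmu-miR-675-5p: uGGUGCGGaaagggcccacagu
mmu-miR-675-3p: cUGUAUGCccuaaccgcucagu
mmu-miR-483-5p: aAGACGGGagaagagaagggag
mmu-miR-483-3p: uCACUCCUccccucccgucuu

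The restraining genes of the insulin-like growth factor pathway were detected in nearly all cells. Igf2r, the receptor that takes up IGF2 and sends it to the lysosome, ranged from 0.912 to 19.6 in bud cells with a median of 8.06. In Six2-detecting cells it ranged from 1.49 to 47.0 (median 8.47), and in the remaining cells from 0.935 to 106 (median 12.3). The medians of bud and Six2-detecting cells nearly coincided, and the ratio was -0.38 in bud over Six2-detecting cells and -1.09 in bud over remaining cells. Grb10, an adaptor that dampens signalling from the insulin and IGF1 receptors, had an RPKM of 25.1, 32.9, 34.1, 35.3, 48.0, 57.4 and 63.4 in the 7 bud cells. Six2-detecting cells ranged from 24.7 to 207 (median 83.9) and the remaining cells from 7.36 to 233 (median 63.7). All 7 bud cells lay below the median of Six2-detecting cells and below that of the remaining cells, yet within the range of both. The ratio was -0.79 in bud over remaining cells and -1.04 in bud over Six2-detecting cells, where it was under 2-fold with the mean of log2(RPKM + 1) at -0.94 and with Six2 at 10 or more at -0.96. Grb10 was the only one of the 9 genes with a higher mean in Six2-detecting than in remaining cells, 87.9 ± 43.3 against 73.9 ± 50.0, a log2 ratio of 0.25 that ranged from 0.04 to 0.56 over the alternatives.

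Of 25 listed genes of insulin-like growth factor and insulin signalling, 22 were in the table. In bud over remaining cells, 2 of the 21 compared were higher by at least 2-fold and 9 were lower, beside 13.3% higher and 23.8% lower over all genes compared, and their median ratio was 0.04. The growth factor Igf1 was listed at 0 in all 7 bud cells and detected in 2 of 46 Six2-detecting cells and 7 of 33 remaining cells. Its receptor Igf1r, through which IGF2 also signals, was detected in all 7 bud cells with a mean of 23.1 ± 10.2, against 17.9 ± 14.7 in Six2-detecting cells and 16.0 ± 14.6 in the remaining cells. Grb7, an adaptor of the same family as Grb10, had the opposite pattern to Grb10, at 56.3 ± 44.3 in bud cells and 4.73 ± 15.5 in the remaining cells, a log2 ratio of 3.32. Igfbp2, which binds insulin-like growth factors outside the cell, averaged 26.2 in bud cells, where 5 of 7 detected it, and 7.38 in the remaining cells, where 11 of 33 did. The kinase Akt1, which acts downstream of these receptors, was at 5.90 ± 6.46 in bud cells and 35.2 ± 41.7 in the remaining cells. In Six2-detecting over remaining cells none of the 21 compared was higher and 3 were lower, beside 7.92% and 8.19% of all genes compared, with a median of -0.01.

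Cdkn1c, which encodes the cyclin-dependent kinase inhibitor p57, was the second most abundant of the 10 genes and was never below 16.1. It ranged from 93.1 to 430 in bud cells (median 198), from 103 to 1668 in Six2-detecting cells (median 356) and from 16.1 to 1176 in the remaining cells (median 565). All 7 bud cells lay below the median of the remaining cells. The log2 ratio was -1.21 in bud over remaining cells, -0.84 in bud over Six2-detecting cells and -0.36 in Six2-detecting over remaining cells. Of 12 other cyclin-dependent kinase inhibitors, G1 cyclins and their partners compared, 1 was higher and 3 were lower in bud over remaining cells, beside 13.3% and 23.8% of all genes compared, with a median of -0.18. The cyclins Ccne1 and Ccne2 were at 5.70 ± 7.03 and 0.498 ± 0.672 in bud cells, against 42.1 ± 72.8 and 35.8 ± 71.8 in the remaining cells. Ccnd1 and Trp53 had higher means in bud cells, by under 2-fold. Ccnd1 was at 122 ± 81.1 against 86.8 ± 134, and Trp53 at 241 ± 99.5 against 160 ± 92.0. The 1 gene higher by at least 2-fold was Cdkn1a, at 9.43 ± 18.7 against 0.0723 ± 0.307, detected in 4 of 7 bud cells. The mean log2 level of 18 G2/M genes, which rise before cell division, had a Spearman correlation with Cdkn1c of -0.40 over the 86 cells, -0.34 in Six2-detecting cells and -0.46 in the remaining cells. Of the other 9 genes, H19 had a like value with the G2/M genes over all cells (-0.40) and the rest lay between -0.24 and 0.03. Within classes other genes came near Cdkn1c. Igf2 was at -0.45 in the remaining cells and -0.02 in Six2-detecting cells. Igf2r was at -0.32 in Six2-detecting cells and 0.001 in the remaining cells. H19 was at -0.25 in Six2-detecting cells and -0.35 in the remaining cells.

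Mest, which encodes a membrane-bound hydrolase-like protein, was the most even of the 10 genes between classes. It ranged from 318 to 1111 in bud cells, 7.09 to 2273 in Six2-detecting cells and 122 to 2462 in the remaining cells. The ratio was -0.10 in bud over remaining cells and -0.06 in bud over Six2-detecting cells, and both turned positive (0.20 and 0.25) without the bud cells that detected Six2. Within classes it still varied: the remaining cells with Foxd1 had a median of 784 (25 cells), and those without Foxd1 had a median of 217 (8 cells). The microRNA miR-335 lies inside the annotated bounds of Mest, in an exon or an intron. Its arms (RefSeq, GRCm38.p6, seed in capitals) are shown because Mest was the most abundant of the 10 transcripts.
mmu-miR-335-5p: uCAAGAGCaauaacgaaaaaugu
mmu-miR-335-3p: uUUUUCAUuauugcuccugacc

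Peg3, a zinc-finger protein of the paternal copy, was at 2.52, 39.5, 66.3, 98.2, 102, 148 and 244 in the 7 bud cells. It ranged from 29.9 to 422 in Six2-detecting cells (median 144) and from 10.6 to 1167 in the remaining cells (median 214). A single bud cell lay below all cells of both other classes, and that cell also had little Igf2 (6.58). The ratio was -1.24 in bud over remaining cells and -0.65 in bud over Six2-detecting cells.

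Plagl1, a zinc-finger transcription factor known in the mouse to act on a network of imprinted genes, was the most uneven of the abundant genes. It was detected in 7 of 7 bud cells, between 8.60 and 70.7 with a median of 22.3. Among Six2-detecting cells it was below 1 in 14 of 46, and the others reached 194. Among the remaining cells it was below 1 in 4 of 33, and the highest value was 624. The median was 15.9 in Six2-detecting cells and 44.9 in the remaining cells. Recovered reads of Plagl1 were 0 in 1 Six2-detecting cell, in 1 remaining cell and in no bud cell. The mean of 28.5 ± 21.3 in bud cells was below that of the remaining cells, 87.9 ± 122. The log2 ratio of these means was -1.59, and from the mean of log2(RPKM + 1) it was -0.33. In Six2-detecting over remaining cells the ratio was -1.43, and 3.29% of all genes compared had a lower ratio. In bud over Six2-detecting cells it was -0.16 from the means and 1.23 from the mean of log2(RPKM + 1), so the direction depended on the scale, and it was also positive without the bud cells that detected Six2.

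Dlk1 and Meg3 are neighbours on chromosome 12 (mm9, Dlk1 at chr12:110691033-110701546 and Meg3 at chr12:110779206-110809939) with a gap of 77.7 kb. Dlk1, a membrane protein related to the Notch ligands, is expressed from the paternal copy, and Meg3, a long non-coding RNA, from the maternal copy. Both were low in this kidney. Dlk1 was detected in 0 of 7 bud cells, a count for which the exact 95% interval of the share reaches 41.0%. It was detected in 7 of 46 Six2-detecting cells (15.2%, exact 95% interval 6.34% to 28.9%) and in 9 of 33 remaining cells (27.3%, 13.3% to 45.5%). An RPKM of at least 10 was found in 2 cells, a Six2-detecting cell at 14.3 and a remaining cell at 10.3. The other 14 detecting cells lay between 1.17 and 3.30.

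For Dlk1, the smallest recurring step of the values was taken as 1 read. Of the 40 cells above 0, 38 then held a whole number of reads within 0.02, and 46 cells held none. An RPKM of 1 stood for 9.67 reads at the median depth, and 3 reads stood for 0.310. In the shallowest cell 3 reads stood for 2.04, above the detection limit of 1, so the limit there rested on fewer than 3 reads. The highest Dlk1 value rested on 424 reads.

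Meg3 was detected in 1 of 7 bud cells, 23 of 46 Six2-detecting cells and 23 of 33 remaining cells. In 6 bud cells it lay between 0.0479 and 0.1004, which is 1 to 3 reads each, and the seventh was at 7.06, or 162 reads. Of the 82 cells with Meg3 above 0, 57 held a whole number of reads within 0.02. Among the 31 of them with up to 20 reads, 28 did. Six2-detecting cells reached 29.4 with a median of 1.19, and the remaining cells reached 45.1 with a median of 3.39. The log2 ratio was -2.24 in bud over remaining cells and -1.06 in bud over Six2-detecting cells. Without the highest cell of each class these were -3.01 and -1.80, and without the bud cells that detected Six2 they were -1.79 and -0.61. The ratio over Six2-detecting cells was also under 2-fold with the mean of log2(RPKM + 1) at -0.91, with Six2 at 10 or more at -0.90 and without the 4 shallow cells, where it fell just short. The ratio was -1.18 in Six2-detecting over remaining cells, and 5.56% of all genes compared had a lower one. Of 8 compared genes of the Notch pathway, none was higher and 1 was lower in bud over remaining cells, beside 13.3% and 23.8% of all genes compared. The Notch ligand Jag1 was at 44.0 ± 23.2 in bud cells, 11.8 ± 22.8 in Six2-detecting cells and 27.9 ± 63.0 in the remaining cells.

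The 250 bases upstream of a start site of each of the 3 patchy genes, the first of 2 listed for Meg3, are printed from the RefSeq promoter table (GRCm38.p6), which held 8 of the 10 genes. Dlk1 and Meg3 moved together from cell to cell, and Plagl1 was detected in most but not all cells. Capitals mark TGCCGC on either strand (written GCGGCA on the other), the core of the motif bound by ZFP57, a factor that protects imprints. It was searched on both strands and was present in 8.68% of 32817 promoters of this length.
Dlk1 promoter (GRCm38.p6, chr12:109452573-109452822, plus strand): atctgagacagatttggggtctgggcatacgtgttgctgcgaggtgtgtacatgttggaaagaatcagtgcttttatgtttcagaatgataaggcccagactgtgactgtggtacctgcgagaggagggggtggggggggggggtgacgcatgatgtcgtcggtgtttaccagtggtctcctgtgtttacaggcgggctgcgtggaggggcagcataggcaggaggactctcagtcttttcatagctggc
Meg3 promoter (GRCm38.p6, chr12:109540746-109540995, plus strand): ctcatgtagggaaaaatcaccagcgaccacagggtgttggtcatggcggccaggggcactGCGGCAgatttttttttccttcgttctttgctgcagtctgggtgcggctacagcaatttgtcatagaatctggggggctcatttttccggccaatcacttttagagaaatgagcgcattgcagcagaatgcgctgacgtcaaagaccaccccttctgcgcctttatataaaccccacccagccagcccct
Plagl1 promoter (GRCm38.p6, chr10:13090582-13090831, plus strand): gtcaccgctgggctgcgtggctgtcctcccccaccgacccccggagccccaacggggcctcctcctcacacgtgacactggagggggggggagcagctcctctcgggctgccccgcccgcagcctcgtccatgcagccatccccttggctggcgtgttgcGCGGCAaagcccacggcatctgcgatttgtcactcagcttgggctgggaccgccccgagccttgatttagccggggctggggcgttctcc
The motif occurred once in the Plagl1 and once in the Meg3 sequence and was not found in this window of Dlk1. It was not confined to the patchy genes. The overlapping Mest windows that begin at chr6:30737800 and chr6:30737803 held 2 copies each, and the Mest window at chr6:30733256 held none. No window of Igf2, Igf2r, Peg3 or Grb10 held it. The Plagl1 sequence held 19 CpG sites, Meg3 10 and Dlk1 8, against a median of 6 over all promoters. The letters TATAAA, present on either strand in 12.4% of promoters, were found in the Meg3 window and not in those of Plagl1 and Dlk1. The window of the second Meg3 start held neither motif and 0 CpG sites. These matches describe the windows only.

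None of the 10 genes was all-or-none. A gene was called so when at least 10% of cells were below an RPKM of 1, at least 10% were at or above 10, and fewer than 10% lay between. That pattern was found in 6.27% of the 11205 genes with a mean of at least 1, a set that leaves out Dlk1. It was found in 0 of the 10 imprinted genes, also with limits of 3 and 30 or of 0.1 and 10. Beside so low a share, a count of 0 among so few genes does not set them apart. Only Plagl1 and Meg3 had enough cells on both sides for the pattern. Plagl1 had 18 cells below 1, 15 from 1 to below 10 and 53 at 10 or more, so its middle range was well filled. Meg3 was graded, with 39, 30 and 17 cells in these ranges. Dlk1 had 70, 14 and 2. The 3 patchy genes overlapped: 14 cells detected all 3, 12 cells detected none, and 15 of the 16 cells with Dlk1 also had Meg3, where the separate frequencies of the genes give 8.74. Of the 12 cells with none of them, 9 were Six2-detecting and 3 were remaining cells.

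**Figure D3:**
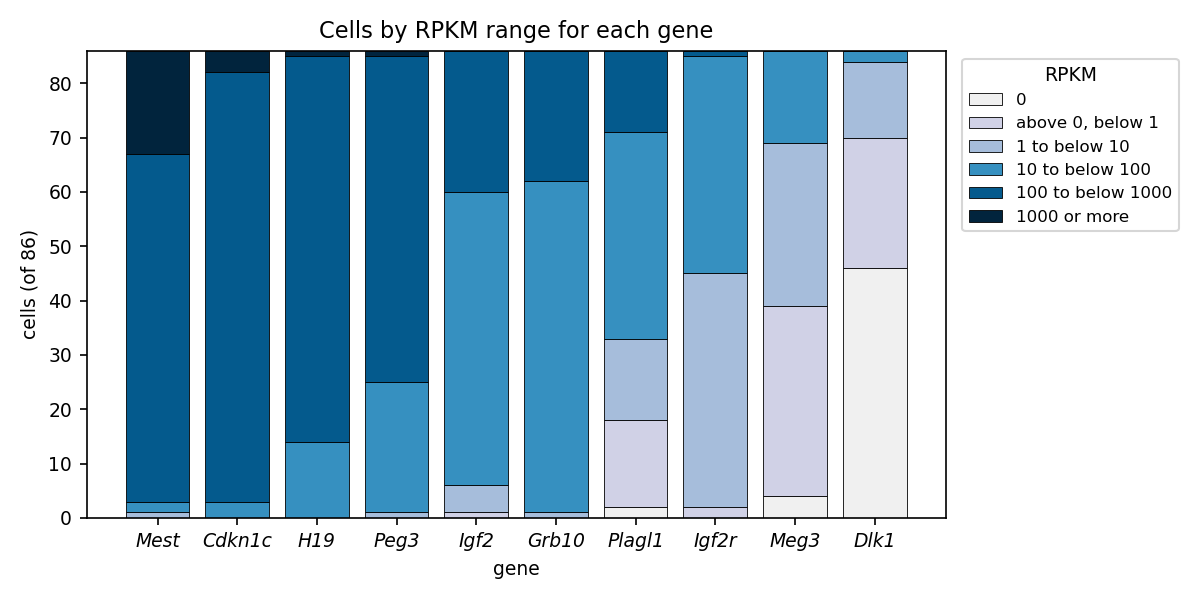
Number of the 86 cells in each RPKM range for each of the 10 genes, as stacked bars from 0 (lightest) to 1000 or more (darkest). Mest, Cdkn1c, H19, Peg3 and Grb10 have no cell below 1, while Plagl1 has 18, Meg3 39 and Dlk1 70 cells below 1, each with cells in the range from 1 to below 10.

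Across cells the 10 genes were mostly positively correlated. Over the 86 cells, the 45 pairs had a median Spearman correlation of 0.24, and 41 of the 45 were above 0. Pairs of all 10841 genes detected in at least 10% of cells had a median of 0.02, as did pairs of the 686 genes detected in every cell. Within Six2-detecting cells the median over the 45 pairs was 0.13, with 32 above 0, and within the remaining cells it was 0.27, with 41 above 0. These correlations are descriptions: the values of a pair come from the same library, and all pairs use the same cells. A correlation of at least 0.5 was reached by 4 pairs, which is 8.89% of the 45, against 0.0129% of pairs of all genes and 0.104% of pairs of genes detected in every cell. They were Cdkn1c with Meg3 (0.56), Dlk1 with Meg3 (0.54), Igf2 with H19 (0.52) and Cdkn1c with Peg3 (0.52). Given the relative depth of the cells these were 0.57, 0.55, 0.53 and 0.52, and without the bud cells 0.54, 0.53, 0.49 and 0.47. Within single classes they were less stable. Of the 45 pairs, 1 (2.22%) reached 0.5 in Six2-detecting cells and 5 (11.1%) did in the remaining cells. Cdkn1c with Meg3 was at 0.35 in Six2-detecting and 0.63 in remaining cells, and Cdkn1c with Peg3 at 0.52 and 0.35. The share over all genes was taken over the 86 cells only. Over the 86 cells Grb10 stood apart, with correlations between -0.19 and 0.18 to the other 9 genes. In the remaining cells they ran from -0.22 with Igf2r to 0.45 with Dlk1, and in Six2-detecting cells from -0.23 with Igf2 to 0.12 with Peg3.

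Both close pairs of chromosomal neighbours, with gaps of 72.6 and 77.7 kb, were among the 4. Igf2 and Cdkn1c, 797 kb apart on chromosome 7, were not. That pair was at 0.34 over all cells, -0.01 in Six2-detecting cells and 0.58 in the remaining cells. Of 10840 other genes, Igf2 had the highest correlation with H19, and H19 had the second highest with Igf2. Meg3 had the second highest with Dlk1, while Dlk1 ranked 28 for Meg3. Igf2 with H19 was at 0.29 in Six2-detecting cells and 0.64 in the remaining cells, and Dlk1 with Meg3 at 0.47 and 0.52. The partners in each of these pairs are expressed from opposite parental copies. Over all pairs, the 20 of the same parental origin had a median of 0.26 and the 25 of opposite origin a median of 0.19, both within the range of the other.

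**Figure D4:**
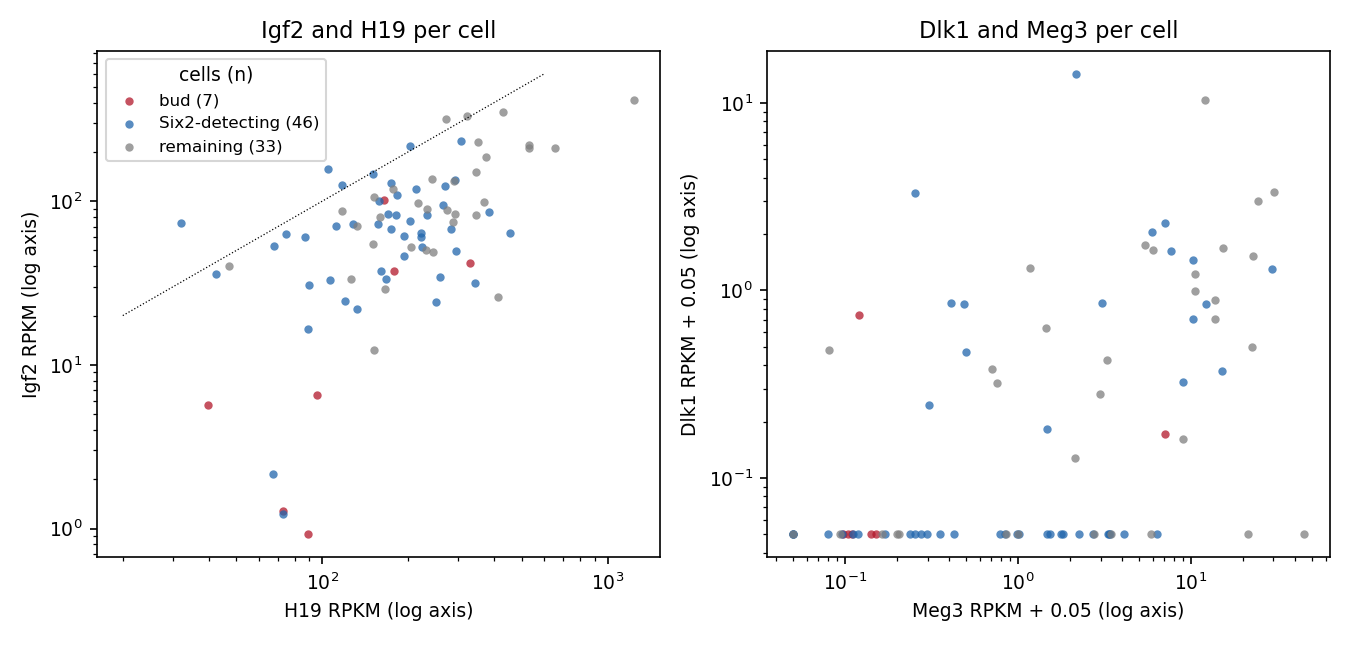
Igf2 against H19 (left) and Dlk1 against Meg3 (right) in each of the 86 cells, on log axes, with 0.05 added for Dlk1 and Meg3. The dotted line on the left marks equal levels: H19 exceeds Igf2 in 80 of 86 cells, and on the right 15 of the 16 cells with Dlk1 at 1 or more also have Meg3 at 1 or more.

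**Figure D5:**
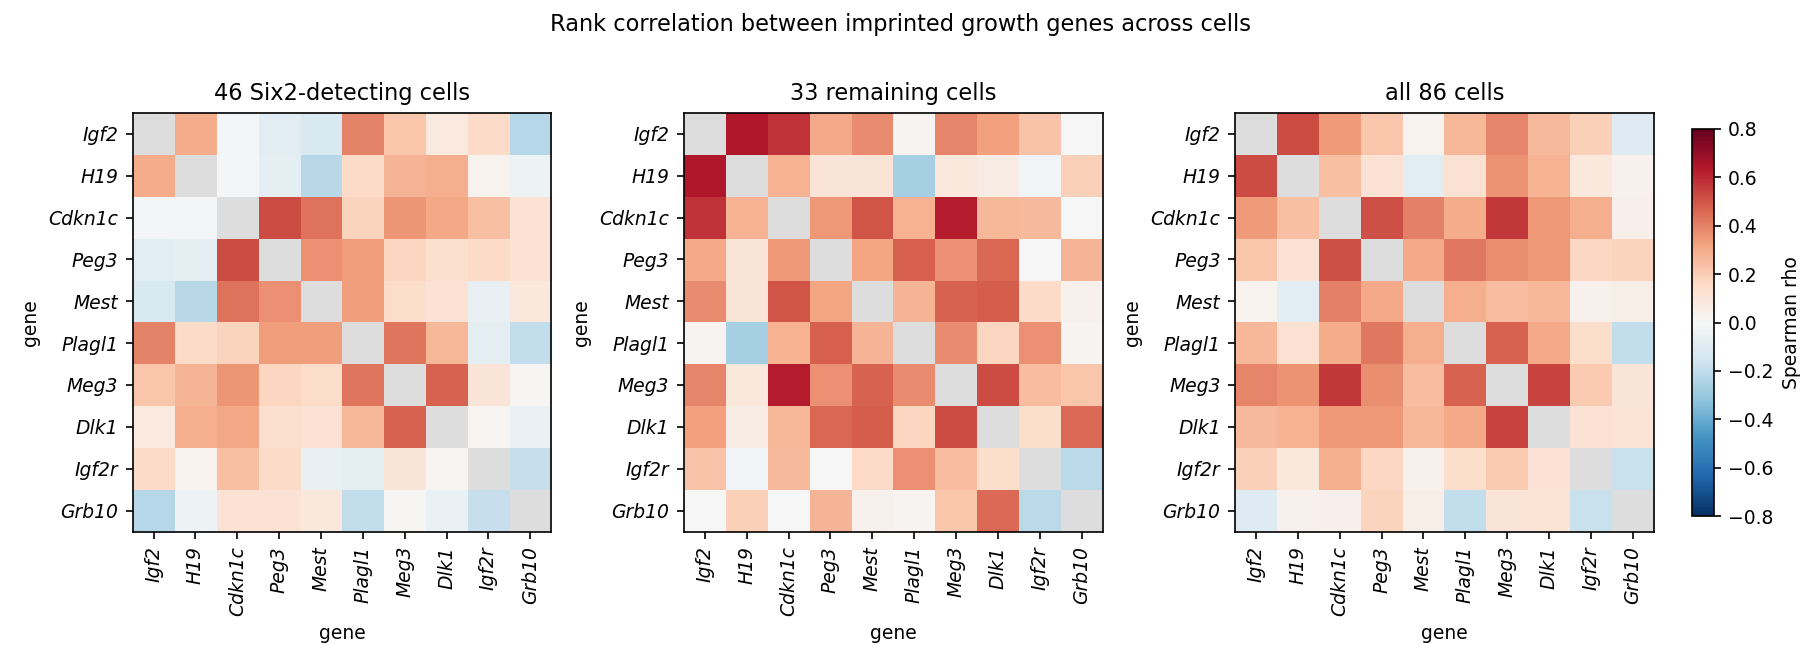
Spearman correlation of each pair of the 10 genes across the 46 Six2-detecting cells, the 33 remaining cells and all 86 cells, from blue (negative) to red (positive). Red squares prevail in all 3 panels, with 32, 41 and 41 of 45 pairs above 0, and the row of Grb10 is pale in the panel of all cells.

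The genes most like each member over the 86 cells were named by rank, 3 for each. For Meg3 they were Col3a1 (0.75), Fam38b (0.69) and Col1a2 (0.66), where Col3a1 and Col1a2 encode fibrillar collagens. Cdkn1c was most like Lgals1 (0.71), Mfap2 (0.68) and Fstl1 (0.65), which encode galectin-1, a microfibril protein and a follistatin-like secreted protein. Peg3 was most like Emp3 (0.57), Col1a2 (0.56) and Ldb2 (0.54). Plagl1 was most like Myh10 (0.66), Nfib (0.65) and Maged2 (0.62). Igf2 was most like Crabp1, H19 and Rbms3 (0.52, 0.52 and 0.49), and H19 was most like Igf2, Tmsb10 and Sfrp1 (0.52, 0.50 and 0.44). Dlk1 was most like Tmtc4, Meg3 and Snx33 (0.58, 0.54 and 0.51), and Igf2r was most like B2m, Ugdh and Slc39a1 (0.55, 0.47 and 0.45). Mest was most like Foxd1 (0.42), Rbbp7 (0.40) and Cdkn1c (0.40). Grb10 was most like Nt5dc2 (0.45), Wdr19 (0.38) and Hdac5 (0.38).

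Stroma markers moved with several of the 10 genes. The mean log2 level of the 17 stroma markers had a correlation over all cells of 0.66 with Cdkn1c, 0.66 with Meg3, 0.53 with Plagl1, 0.52 with Peg3, 0.43 with Igf2, 0.43 with Dlk1, 0.35 with Igf2r, 0.25 with Mest, 0.25 with H19 and -0.05 with Grb10. Within Six2-detecting cells alone it was 0.50 with Cdkn1c, 0.51 with Meg3 and 0.53 with Plagl1. All 17 markers were detected in at least 1 cell of both classes outside the bud, and in bud cells 5 of them (Dcn, Lum, Postn, Tbx18 and Alx1) stayed below 1 in every cell. The part of the stroma markers in the class differences above was not tested. With the 15 nephron progenitor markers the order turned round, with 0.37 for Grb10 and -0.37 for Plagl1.

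Cells with and without Foxd1, the stromal transcription factor, were also compared. Foxd1 is itself among the stroma markers above, so this split is not independent of those correlations. Among Six2-detecting cells, 31 had Foxd1 and 15 did not. Plagl1 was detected in 25 of the 31 with a median of 26.4, and in 7 of the 15 with a median of 0.877. Dlk1 was detected in 7 of the 31 and in 0 of the 15, and Meg3 in 18 of the 31 and in 5 of the 15. H19 had medians of 167 and 181, and Grb10 of 73.7 and 90.3, close to each other beside their spread. The cells with Foxd1 also detected more genes, with a median of 6465 against 5847, and the part of this in the differences was not tested. Between Six2-detecting cells with Cited1, a gene of the early progenitor state (29 cells), and those without it (17 cells), Mest had medians of 802 and 481, and Igf2 of 67.4 and 60.2.

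Among the remaining cells, those without Foxd1 had a lower median of every one of the 10 genes except Grb10. Cdkn1c had a median of 692 in 25 cells with Foxd1 and 251 in 8 cells without it. Peg3 had medians of 227 and 77.2, and Plagl1 of 62.2 and 4.82. H19 was nearly level, at 272 and 261, and Grb10 was lower with Foxd1, at 49.7 against 84.7. The 10 remaining cells with the pericyte gene Rgs5 at 100 or more all had Plagl1, between 5.84 and 141 with a median of 87.9, while the 23 others had a median of 17.4. The means ran the other way, at 78.2 ± 39.2 with Rgs5 and 92.1 ± 145 without it. Ranges of the 2 sets overlapped for every one of these genes.

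Of 50 other imprinted genes listed, 36 were in the table. In bud over remaining cells 3 of 31 compared were higher by at least 2-fold and 9 were lower, beside 13.3% and 23.8% of all genes compared. Of the 31 ratios, 4 were above 0, beside 5143 of the 11405 genes compared. The median of the 31 was -0.50, against -0.12 over all genes compared. In bud over Six2-detecting cells 1 of 31 was higher and 9 were lower, beside 11.2% and 22.6% of all genes compared. There 8 of the 31 ratios were above 0, beside 4888 of the 11409 genes compared. In Six2-detecting over remaining cells 4 of 33 were higher and 4 lower, beside 7.92% and 8.19%. Nnat, which encodes the membrane protein neuronatin, was at 15.3 ± 11.3 in bud cells, 49.1 ± 51.3 in Six2-detecting cells and 57.2 ± 48.8 in the remaining cells. Asb4 was at 35.7 ± 47.3, 12.2 ± 30.5 and 51.1 ± 81.9, and Tssc4 at 17.1 ± 28.2, 33.7 ± 53.9 and 7.84 ± 16.4 in the same order of classes. Dcn, which encodes the matrix protein decorin and is also one of the 17 stroma markers, was detected in 0 of 7 bud cells, 7 of 46 Six2-detecting cells and 11 of 33 remaining cells.

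Of 13 compared factors that set or keep imprints, 2 were higher and 1 was lower in bud over remaining cells, beside 13.3% and 23.8% of all genes compared. None passed 2-fold in Six2-detecting over remaining cells, beside 16.1% of all genes compared. The de novo DNA methyltransferase Dnmt3b was at 26.7 ± 26.2 in bud cells, 3.11 ± 5.35 in Six2-detecting cells and 4.98 ± 11.2 in the remaining cells. Dnmt3a, of the same enzyme family, was at 25.6 ± 12.5, 23.2 ± 13.4 and 36.3 ± 15.8. Zfp57 was at 50.1 ± 49.6, 44.7 ± 53.2 and 70.3 ± 58.1, and was detected in all 7 bud cells, 35 of 46 Six2-detecting cells and 29 of 33 remaining cells.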

How the data were processed

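RNA was measured in 86 single cells of 1 pool of embryonic kidneys. The deposited RPKM values, made by the authors per gene length and per cell total, were taken without a log. The submitters' processing notes name TopHat 1.4.1, DESeq and the build mm9 without their roles. Per the file headers, a gene entered the table when 3 or more cells exceeded an RPKM of 3, so rarely expressed genes are missing from every background. The table's count column, deposited by the authors, gives the number of such cells per gene, and a recount gave the same number for all 12360 genes. A second deposited table held none of the 10 genes and was not used.

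Where a read is the smallest step of a gene's low values, the steps gave each cell's depth relative to the others. No unique molecular identifiers were used, so shares and intervals (exact Clopper-Pearson) cover counting error only. Ratios used a pseudocount of 1 and genes averaging an RPKM of 1 or more in either class. No doublet caller was run. Per the labels' protocols, chambers were inspected by microscope.

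All 10 genes are named. For each, the 3 genes of highest Spearman correlation were named among those detected in at least 10% of cells. From other lists, up to 4 genes of highest or lowest ratio averaging an RPKM of 10 or more in either class could be named. Cdkn1a averaged less and was named outside this rule. The genes and lists were chosen with earlier results of these data known. Alternatives changed the pseudocount, the averaging, the filters, the class limits and the cells kept. Python 3.11.15, numpy 2.4.6, pandas 2.3.3 and scipy 1.17.1 were used, and the scripts were tested on simulated data.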

Additional observations from a re-analysis of the deposited data

Results flagged for a closer look

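In 3 of the 10 genes a single bud cell lay far from the other 6, judged by the gap to the nearest cell as a share of the whole range (Dixon's criterion for 7 values). This marks cells for a second look and compares no classes. Chance flags about 1 in 20 groups of normally distributed values, but these values are skewed, and the 10 genes share the same 7 cells. Meg3 was at 7.06 in a bud cell while the other 6 were at 0.1004 or less, and the gap took up 0.993 of the range. The same cell had the highest H19 (329) and the highest Plagl1 (70.7) of the bud cells, and it did not detect Six2. Igf2 was at 102 in the bud cell with the most Six2 (50.4), and the next bud cell was at 41.9. Dlk1 was at 0.689 in another bud cell, below the detection limit of 1, while 5 bud cells were at 0. Its value rests on 7 reads.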

How the results depend on the processing

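With 9 alternatives for each of 27 ratios between classes, 237 of 243 values had the direction of the main value and 232 lay within 1.5-fold of it. The 6 of other sign were Mest in bud over remaining and over Six2-detecting cells and Plagl1 in bud over Six2-detecting cells, each with the mean of log2(RPKM + 1) and without the bud cells that detected Six2. With the mean of log2(RPKM + 1), 4 genes (7 in the report) were past 2-fold in bud over remaining cells and 1 (2 in the report) in Six2-detecting over remaining cells. In bud over Six2-detecting cells the number stayed at 3, but Peg3 (lower) and Plagl1 (higher) stood in place of Grb10 and Meg3. Without the bud cells that detected Six2 it also stayed at 3, with Cdkn1c in place of Meg3. With Six2 at 10 or more, 1 gene (Igf2; 3 in the report) was past it in bud over Six2-detecting cells, and without the 4 cells of relative depth under 0.2, an alternative chosen after seeing the data, 2 were. Leaving out 5 cells of few genes (4 remaining, 1 Six2-detecting) took H19 from the 7, leaving 6. At any RPKM above 0, the median cell held 9 of the 10 genes (8 in the report). The median correlation was 0.13 in Six2-detecting cells (0.24 in the report) and between 0.21 and 0.27 in the other alternatives. Cells with H19 but without Igf2 numbered 4 at a limit of 3, 0 above 0 and 6 at a limit of 10 (1 in the report). The causes were not tested. No paired analysis was possible because all cells come from 1 pool and no test was made. Depth limits calls most in the shallowest cell, where 3 reads exceed the detection limit for Dlk1 (2.04) and Plagl1 (1.66). The 4 cells of relative depth under 0.2, all Six2-detecting, were nearly alike in depth (0.152 to 0.163), so this applies to each of them. For Plagl1, 61 of the 84 cells above 0 held a whole number of reads within 0.02, so its reads are less sure than those of Dlk1.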
